A study of Mus musculus with 10 samples.

Results

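The 9 genes described here encode the enzymes that assemble triglycerides and the proteins that supply and move the glycerol for them: Gpam, Agpat2, Lpin1, Lpin2, Dgat1, Dgat2, Gpd1, Pck1 and Aqp7. They were chosen by name, through the NCBI mouse gene identifiers of the deposited count table, and all 9 were found among its 18103 genes. All 9 entered the test of 13149 genes that passed a filter on low counts. Pck1 passed that filter only through the rosiglitazone libraries and Aqp7 only through the rosiglitazone libraries or those with BMP2 plus the MEK inhibitor, whereas the other 7 passed without them.

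RNA was sequenced from 2 mouse breast cancer cell lines after 7 days of culture, with 2 libraries from separate experiments in each of 5 groups. Py2T-LT cells, a long-term mesenchymal form of the mammary tumour line Py2T, came as controls, under MEK inhibition alone, or under MEK inhibition together with bone morphogenetic protein 2 (BMP2). MTΔECad cells, mesenchymal breast cancer cells named for a deletion of E-cadherin that controls and treated cells share, were sampled as controls or with rosiglitazone, a ligand of the adipocyte receptor PPARγ. Each line stands for 1 tumour-derived culture. The protocol gives BMP2 at 200 ng/ml, the MEK inhibitor PD98059 at 40 µM and rosiglitazone at 2 µM. It names DMSO medium for controls, and it lists rosiglitazone in the later days of BMP2 differentiation without saying whether the Py2T-LT samples received it.

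Triglycerides are built on glycerol 3-phosphate. Glycerol 3-phosphate acyltransferases (GPATs, such as Gpam) attach the first fatty acyl chain, acylglycerophosphate acyltransferases (AGPATs, such as Agpat2) the second, lipins remove the phosphate, and diacylglycerol acyltransferases (Dgat1 and Dgat2) add the last chain. Adipocytes phosphorylate little glycerol themselves: Gpd1 makes glycerol 3-phosphate from a glycolytic intermediate, Pck1 feeds the same pool from non-sugar precursors, and Aqp7 is the channel through which adipocytes release glycerol.

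Library totals ran from 14659987 to 17249199 counts, so that 1 count was worth at most 0.0696 CPM (counts scaled to library size, with edgeR's TMM factors) and the floor of 3 counts per library at most 0.209 CPM. Log2 levels of replicates correlated at 0.993 to 0.995. The summed level of 10 adipocyte markers, all of them detected in every group, was 670.0 to 681 CPM in Py2T-LT controls, 1058 to 1106 with the MEK inhibitor, 1363 to 1512 with BMP2 plus the inhibitor, 1779 to 1917 in MTΔECad controls and 4193 to 4627 with rosiglitazone. The sum was higher in both treated lines than in their controls, and its part in the results on the 9 genes was not tested. The 8 mesenchymal markers were detected in every group, at 7991 to 10837 CPM in sum over the Py2T-LT groups, 13580 to 16215 in MTΔECad controls and 10248 to 10634 with rosiglitazone. The 8 epithelial markers summed to 637 to 688 CPM in Py2T-LT controls, 588 to 672 with the inhibitor, 314 to 336 with the combination, 283 to 293 in MTΔECad controls and 418 to 462 with rosiglitazone, with Esrp1 at 0 in all but the combination. The part of these sums in the results was likewise not tested. Cdh1, the gene of E-cadherin, had 584 and 507 counts in Py2T-LT controls, 37 and 36 in MTΔECad controls and 46 and 67 with rosiglitazone. Of 6 hepatocyte and kidney tubule markers, other cells that use Pck1, Gpd1 or Aqp7, 3 had a row and summed to at most 0.201 CPM, with G6pc at 0 in 4 groups and Alb at 0 in 4. The 5 endothelial markers summed to at most 1.56 CPM and 4 haematopoietic markers to at most 8.53 CPM. In these bulk libraries, fewer cells that express a gene and less of its RNA per cell cannot be told apart.

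A gene is said to rise or fall where edgeR's quasi-likelihood test gave a Benjamini-Hochberg adjusted p under 0.05 over all genes tested. Log2 fold changes are given with their standard error. Rosiglitazone raised 8 of the 9 genes in MTΔECad cells and lowered none, with Lpin2 not called. Of all tested genes 13.2% were called in that comparison, 7.95% as higher and 5.26% as lower. The MEK inhibitor alone raised 5 of 9 in Py2T-LT cells and lowered none, against 16.5% of all genes called, 8.98% as higher and 7.52% as lower. BMP2 plus the inhibitor raised 6 of 9 and lowered none, against 38.5% called, 19.1% as higher and 19.4% as lower. Compared with the inhibitor alone, the combination had 5 of 9 higher and 1 lower, against 37.3% of genes called, 17.9% as higher and 19.4% as lower; without inhibitor replicate 2 the 6 calls became 3. Leaving aside Pck1 and Aqp7, which passed the filter only through treated libraries, rosiglitazone raised 6 of 7 and both Py2T-LT treatments raised 5 of 7. Of the same 7 genes, the combination had 4 higher and 1 lower than the inhibitor alone. The median log2 fold change of the members that have a fold was 2.36 under rosiglitazone (9 genes, with the lower bounds of Pck1 and Aqp7), 0.77 under the inhibitor (8 genes) and 1.34 under the combination (8 genes). Over the 7 genes without Pck1 and Aqp7 these medians were 1.09, 0.48 and 0.80. The medians of all tested genes in the same comparisons were -0.02, 0.01 and 0.00. Both Py2T-LT treatments were compared with the same pair of control libraries.

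**Figure D1:**
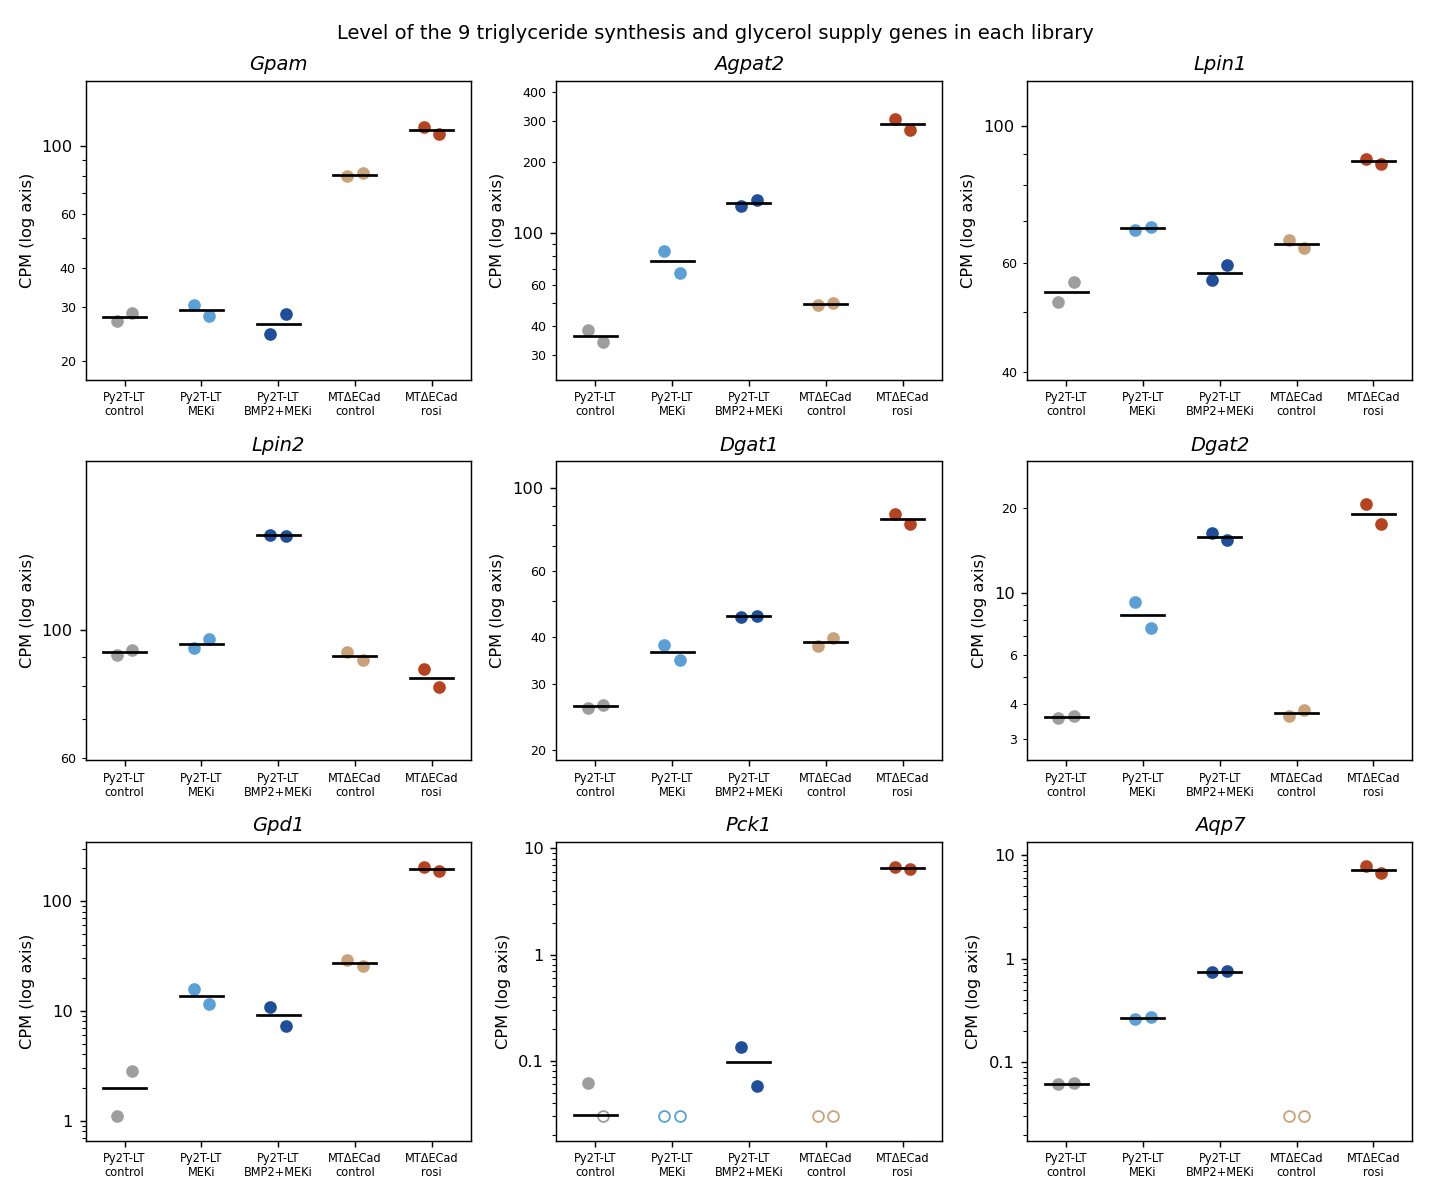
Level of each of the 9 genes in CPM on a log axis, by group, with 1 point per library and a bar at the mean of the 2 libraries; open points stand for 0 counts and are drawn at the foot of the axis. The rosiglitazone libraries are the highest for every gene except Lpin2, whose highest libraries are those with BMP2 plus the MEK inhibitor at 146 and 147 CPM.

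Gpam encodes the mitochondrial GPAT that attaches the first acyl chain (NCBI Gene 14732, GRCm38 chromosome 19, 55067635 to 55127319). Py2T-LT controls held 27.1 and 28.6 CPM of it, against 30.4 and 28.1 with the MEK inhibitor and 24.4 and 28.4 with BMP2 plus the inhibitor. The 3 Py2T-LT groups overlapped. Against controls the log2 fold change was 0.07 ± 0.10 with the inhibitor (95% interval -0.13 to 0.27) and -0.07 ± 0.10 with the combination (-0.28 to 0.14), with edgeR adjusted p = 0.72 and 0.62. In MTΔECad cells Gpam stood at 79.5 and 81.3 CPM in controls and at 115 and 109 CPM with rosiglitazone. Every MTΔECad library lay above every Py2T-LT library. Gpam rose under rosiglitazone by 0.48 ± 0.09, or 1.40-fold, with edgeR adjusted p = 4.5e-04.

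Agpat2 encodes the AGPAT whose loss causes generalised lipodystrophy in mice and humans (NCBI Gene 67512, chromosome 2, 26593057 to 26604417). Its levels were 38.5 and 34.3 CPM in Py2T-LT controls, 84.1 and 67.6 with the MEK inhibitor, and 131 and 138 with BMP2 plus the inhibitor. No library of a group reached the range of the next. Agpat2 rose by 1.06 ± 0.10 with the inhibitor and by 1.89 ± 0.10 with the combination, and the combination exceeded the inhibitor by 0.83 ± 0.10, with edgeR adjusted p = 1.9e-07, 3.5e-12 and 4.6e-07. MTΔECad controls held 49.1 and 50.3 CPM and rosiglitazone libraries 307 and 274 CPM, again without overlap. The rise under rosiglitazone was 2.55 ± 0.10, or 5.84-fold, with edgeR adjusted p = 7.1e-14.

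The lipins turn phosphatidate into diacylglycerol, and they also act in the nucleus as transcriptional coregulators. Lpin1 (NCBI Gene 14245, chromosome 12, 16535669 to 16653903), the main lipin of adipose tissue, stood at 51.8 and 55.7 CPM in Py2T-LT controls, 67.7 and 68.6 with the MEK inhibitor and 56.2 and 59.5 with BMP2 plus the inhibitor. The inhibitor libraries were the highest of the 3 groups, and no groups overlapped. Lpin1 rose by 0.34 ± 0.08 with the inhibitor (edgeR adjusted p = 0.0048), differed from controls by 0.11 ± 0.08 with the combination (0.34), and was lower by 0.24 ± 0.08 with the combination than with the inhibitor alone (0.025). The last call was lost by DESeq2 (adjusted p = 0.053) and without any 1 of 3 libraries (0.076 to 0.15), and the rise with the inhibitor missed the threshold without Py2T-LT control replicate 1 (0.052). In MTΔECad cells Lpin1 went from 65.4 and 63.3 CPM to 88.4 and 86.6 CPM. That rise of 0.44 ± 0.08 had edgeR adjusted p = 4.5e-04.

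Lpin2 (NCBI Gene 64898, chromosome 17, 71183532 to 71249818) was called in another set of comparisons than Lpin1. It stood at 90.7 and 92.3 CPM in Py2T-LT controls, 93.2 and 96.4 with the MEK inhibitor, and 147 and 146 with BMP2 plus the inhibitor. The combination stood apart from the other two groups. Lpin2 rose by 0.67 ± 0.07 with the combination against controls and by 0.62 ± 0.07 against the inhibitor alone (edgeR adjusted p = 2.2e-07 and 6.8e-07), and its difference with the inhibitor alone was 0.05 ± 0.07 (0.73). MTΔECad cells held 91.5 and 88.6 CPM as controls and 85.6 and 79.7 CPM with rosiglitazone. This difference of -0.12 ± 0.08 (95% interval -0.28 to 0.03) did not pass the test (edgeR adjusted p = 0.36).

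Dgat1 and Dgat2 encode unrelated proteins that catalyse the same final acylation; Dgat2 is the one tied to newly made fatty acids. Dgat1 (NCBI Gene 13350, chromosome 15, 76502012 to 76512021) stood at 25.9 and 26.4 CPM in Py2T-LT controls, 38.3 and 34.9 with the MEK inhibitor, 45.3 and 45.8 with BMP2 plus the inhibitor, 37.9 and 39.8 in MTΔECad controls and 85.5 and 80.1 with rosiglitazone. Within each line no groups overlapped. Dgat1 rose by 0.48 ± 0.09 with the inhibitor, 0.80 ± 0.09 with the combination and 1.09 ± 0.09 with rosiglitazone, with edgeR adjusted p = 8.4e-04, 4.6e-07 and 8.5e-09. Its step from the inhibitor to the combination was 0.32 ± 0.09 (edgeR adjusted p = 0.0079), which became 0.098 without inhibitor replicate 2.

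Dgat2 (NCBI Gene 67800, chromosome 7, 99153663 to 99182713) was low in both controls, at 3.57 and 3.62 CPM in Py2T-LT and 3.62 and 3.82 CPM in MTΔECad cells. It stood at 9.24 and 7.45 CPM with the inhibitor, 16.3 and 15.4 with the combination and 20.7 and 17.5 with rosiglitazone. All treated libraries lay above all control libraries. Dgat2 rose by 1.21 ± 0.18, 2.13 ± 0.17 and 2.36 ± 0.17 in these 3 groups against their own controls, the last equal to 5.13-fold, with edgeR adjusted p = 4.8e-05, 1.4e-09 and 9.9e-10. The combination also exceeded the inhibitor alone, by 0.93 ± 0.15 (3.2e-05).

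**Figure D2:**
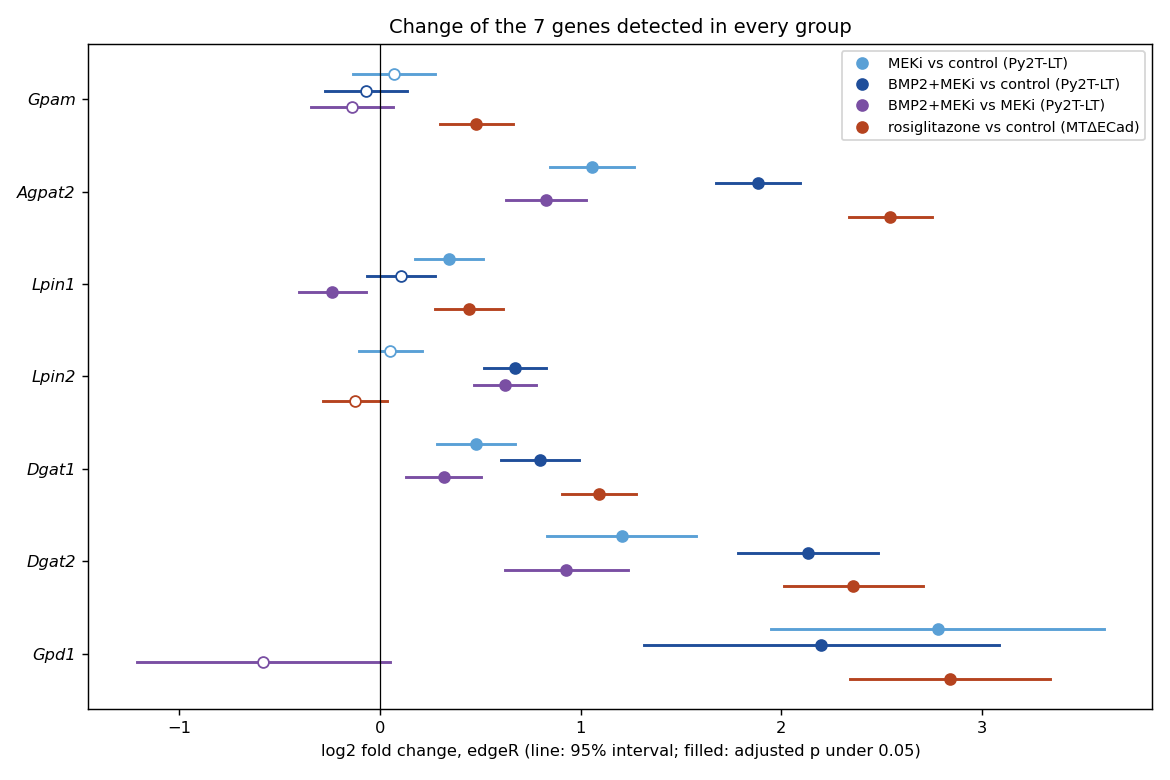
Log2 fold changes from edgeR for the 7 genes detected in every group, in 3 comparisons within Py2T-LT cells and 1 within MTΔECad cells; lines are 95% intervals and filled points have an adjusted p under 0.05. Agpat2, Dgat1 and Dgat2 are filled in all 4 comparisons, Gpam only under rosiglitazone, and Lpin2 only where BMP2 was added.

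Gpd1, which reduces dihydroxyacetone phosphate to glycerol 3-phosphate (NCBI Gene 14555, chromosome 15, 99717587 to 99725014), spanned the widest range of the 7 genes detected in every group, 6.68 on the log2 scale between the lowest and the highest group mean. Py2T-LT controls held 1.11 and 2.81 CPM, the inhibitor libraries 15.6 and 11.5 CPM, and those with BMP2 plus the inhibitor 10.9 and 7.33 CPM. Both treated groups lay above both controls, and the combination lay below the inhibitor alone. Gpd1 rose by 2.78 ± 0.36 with the inhibitor and by 2.20 ± 0.38 with the combination, with edgeR adjusted p = 0.0010 and 0.0022. Because the 2 controls differed, these values ran from 2.26 to 3.59 and from 1.68 to 3.01 without control replicate 1 or 2, in that order, and stayed called. The combination differed from the inhibitor by -0.58 ± 0.27 (edgeR adjusted p = 0.14). Over the alternatives this value ran from -0.88 to -0.31 with adjusted p of 9.0e-05 to 0.48, and it was called only without the count filter and with only the 2 groups fitted (9.7e-04). MTΔECad controls held 29.2 and 25.4 CPM and rosiglitazone libraries 204 and 188 CPM, a rise of 2.84 ± 0.21, or 7.18-fold, with edgeR adjusted p = 4.6e-05.

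Pck1 encodes the cytosolic phosphoenolpyruvate carboxykinase, the regulated enzyme of gluconeogenesis in liver and of glyceroneogenesis in adipocytes (NCBI Gene 18534, chromosome 2, 173153073 to 173159274). It had 1 and 0 counts in Py2T-LT controls, 0 and 0 with the MEK inhibitor, 2 and 1 with BMP2 plus the inhibitor, and 0 and 0 in MTΔECad controls. Rosiglitazone libraries had 103 and 94 counts, or 6.76 and 6.46 CPM. Pck1 was thus above the floor of 3 counts per library in this group alone among the 5. Against MTΔECad controls it was at least 33.3-fold higher, counting the controls at the floor, with edgeR adjusted p = 6.6e-09. Aqp7 (NCBI Gene 11832, chromosome 4, 41033074 to 41048237) had 1 and 1 counts in Py2T-LT controls, 4 and 5 with the inhibitor, 11 and 13 with the combination, 0 and 0 in MTΔECad controls, and 119 and 97 with rosiglitazone. The 5 groups did not overlap, but both control groups lay below the floor of 3 counts per library, so their order is not resolved. Aqp7 was at least 36.5-fold higher with rosiglitazone than in MTΔECad controls (edgeR adjusted p = 6.0e-10). The combination held 12.0 times the Aqp7 level of Py2T-LT controls (95% counting interval 2.99 to 105, edgeR adjusted p = 6.4e-04), and the inhibitor 4.30 times that level (0.890 to 40.9, 0.15). The ratio of the combination to the inhibitor was 2.80, with an interval of 1.26 to 6.84 and edgeR adjusted p = 0.032; this call was lost by DESeq2 (0.089), with only these groups fitted (0.062) and without any 1 of the 4 libraries (0.081 to 0.11).

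The sequences before the start sites of these genes are shown because Pck1 and Aqp7 were at or near the floor in most groups while Agpat2 was detected in every library and rose in all 3 treatments. RefSeq windows of GRCm38.p6 were at hand for 6 of the 9 genes (10 windows, 250 bases before to 50 after each start). They were searched on both strands for 3 motifs. The first was the nuclear receptor hexamer AGGTCA. The second was the direct repeat that PPARγ and its partner RXR are known to bind (AGGNCA repeated after 1 base, which can contain the hexamer). The third was TTACGTCA, 1 form of the cAMP response element. Other forms of that element were not searched, and its match before Pck1 is given as a description, not as a test. The hexamer is in 16.3% of all 32851 such windows, the direct repeat in 0.381% and TTACGTCA in 0.499%. The direct repeat was in none of the 10 windows. Below are the 250 bases before the Pck1 start (chr2:173152823-173153072, plus strand), with the cAMP response element in capitals 93 bases before the start, and the 250 bases before the Agpat2 start (chr2:26604418-26604667, minus strand), where no match was found; then, at 30 bases each, the hexamers of Aqp7 (chr4:41048168-41048197 and chr4:41048046-41048075, minus strand, where the capitals show its reverse complement), Lpin1 (chr12:16611023-16611052, minus strand) and Gpam (chr19:55099656-55099685, minus strand). All are written 5′ to 3′.
Pck1: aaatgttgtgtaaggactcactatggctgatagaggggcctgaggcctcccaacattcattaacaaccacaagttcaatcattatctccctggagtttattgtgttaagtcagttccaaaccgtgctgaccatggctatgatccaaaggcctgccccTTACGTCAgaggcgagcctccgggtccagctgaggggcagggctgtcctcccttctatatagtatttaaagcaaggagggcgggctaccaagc
Agpat2: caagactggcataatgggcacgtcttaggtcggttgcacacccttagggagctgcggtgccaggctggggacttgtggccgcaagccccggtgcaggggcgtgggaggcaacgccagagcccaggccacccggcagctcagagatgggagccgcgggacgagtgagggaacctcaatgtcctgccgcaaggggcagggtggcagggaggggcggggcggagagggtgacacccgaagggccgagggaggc
Aqp7 distal: gaactccacctcTGACCTcacaagggctgc
Aqp7 proximal: cccctgccctacTGACCTctcccctggaga
Lpin1: ggaagtagcttgAGGTCActtcctgtagtc
Gpam: ctaggctagctgAGGTCAcgcaagggagat
The distal Aqp7 hexamer lies 49 bases before 1 annotated start and 223 before the other, and the proximal one 101 bases before the latter. The Lpin1 hexamer lies 74 bases before the one Lpin1 start in the table and the Gpam one 196 bases before one of the Gpam starts. These starts and both Aqp7 starts lie inside the gene spans given above. Lpin2 has 3 windows without a match, and Dgat1, Dgat2 and Gpd1 have no window in the table. These matches describe the letters of the windows only, and occupancy of the sites was not measured.

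Isoenzymes of the members were compared as shares of their step, each gene's CPM divided by the length of its merged exons (CPM per kb). At the AGPAT step Agpat2 made up 33.1% ± 1.31 of the summed level in Py2T-LT controls (SD, n = 2), 50.3% ± 1.41 with the inhibitor, 67.0% ± 0.570 with the combination, 30.6% ± 1.31 in MTΔECad controls and 69.2% ± 0.181 with rosiglitazone. It was the largest contributor in each group, although without division by length Agpat3 led in both controls and with the inhibitor. Gpam was in no group the largest GPAT. Its share was 10.5% to 11.8% in the Py2T-LT groups, 29.4% ± 0.269 in MTΔECad controls and 23.6% ± 0.221 with rosiglitazone, while Gpat4, a GPAT of the endoplasmic reticulum, held 41.1% to 71.4% over the 5 groups.

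Gpat3 is the other endoplasmic reticulum GPAT and an isoenzyme known from adipocytes. Levels were 19.9 and 21.6 CPM in control Py2T-LT cells, 34.2 and 34.8 with the inhibitor, 40.6 and 42.4 with the combination, 10.1 and 12.7 in MTΔECad controls and 90.8 and 85.3 with rosiglitazone. It rose in each treatment, by 0.73 ± 0.11, 1.00 ± 0.10 and 2.94 ± 0.11, with edgeR adjusted p = 3.3e-05, 1.1e-07 and 3.5e-14. Its share of the GPAT step went from 7.91% ± 1.09 in MTΔECad controls to 35.3% ± 0.447 under rosiglitazone. Without division by length that share went from 4.31% to 22.2%.

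Lpin1 was 42.5% of the lipin sum in Py2T-LT controls, 47.5% with the inhibitor, 33.2% with the combination, 44.7% in MTΔECad controls and 55.6% with rosiglitazone. Lpin2 held most of the remainder, and Lpin1 was the larger of the pair only with rosiglitazone. The Dgat2 share of the DGAT step was 12.0%, 18.4%, 25.6%, 8.66% and 18.6% in the same order, so Dgat1 was the larger in every group. Gpd1 made up 7.54% of its step in Py2T-LT controls, 35.5% with the inhibitor, 29.6% with the combination and 44.3% in MTΔECad controls, below its relative Gpd1l, and 83.6% with rosiglitazone. Gpd1l itself was called in none of the 4 treatment comparisons. Pck1 was 9.39% of the 2 phosphoenolpyruvate carboxykinases with rosiglitazone and at most 0.435% elsewhere, the rest being Pck2, the mitochondrial form; with the longest transcript as length the rosiglitazone share was 7.16%, and without division by length 4.35%. Pck2 fell by 0.27 ± 0.08 under rosiglitazone (edgeR adjusted p = 0.037).

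**Figure D3:**
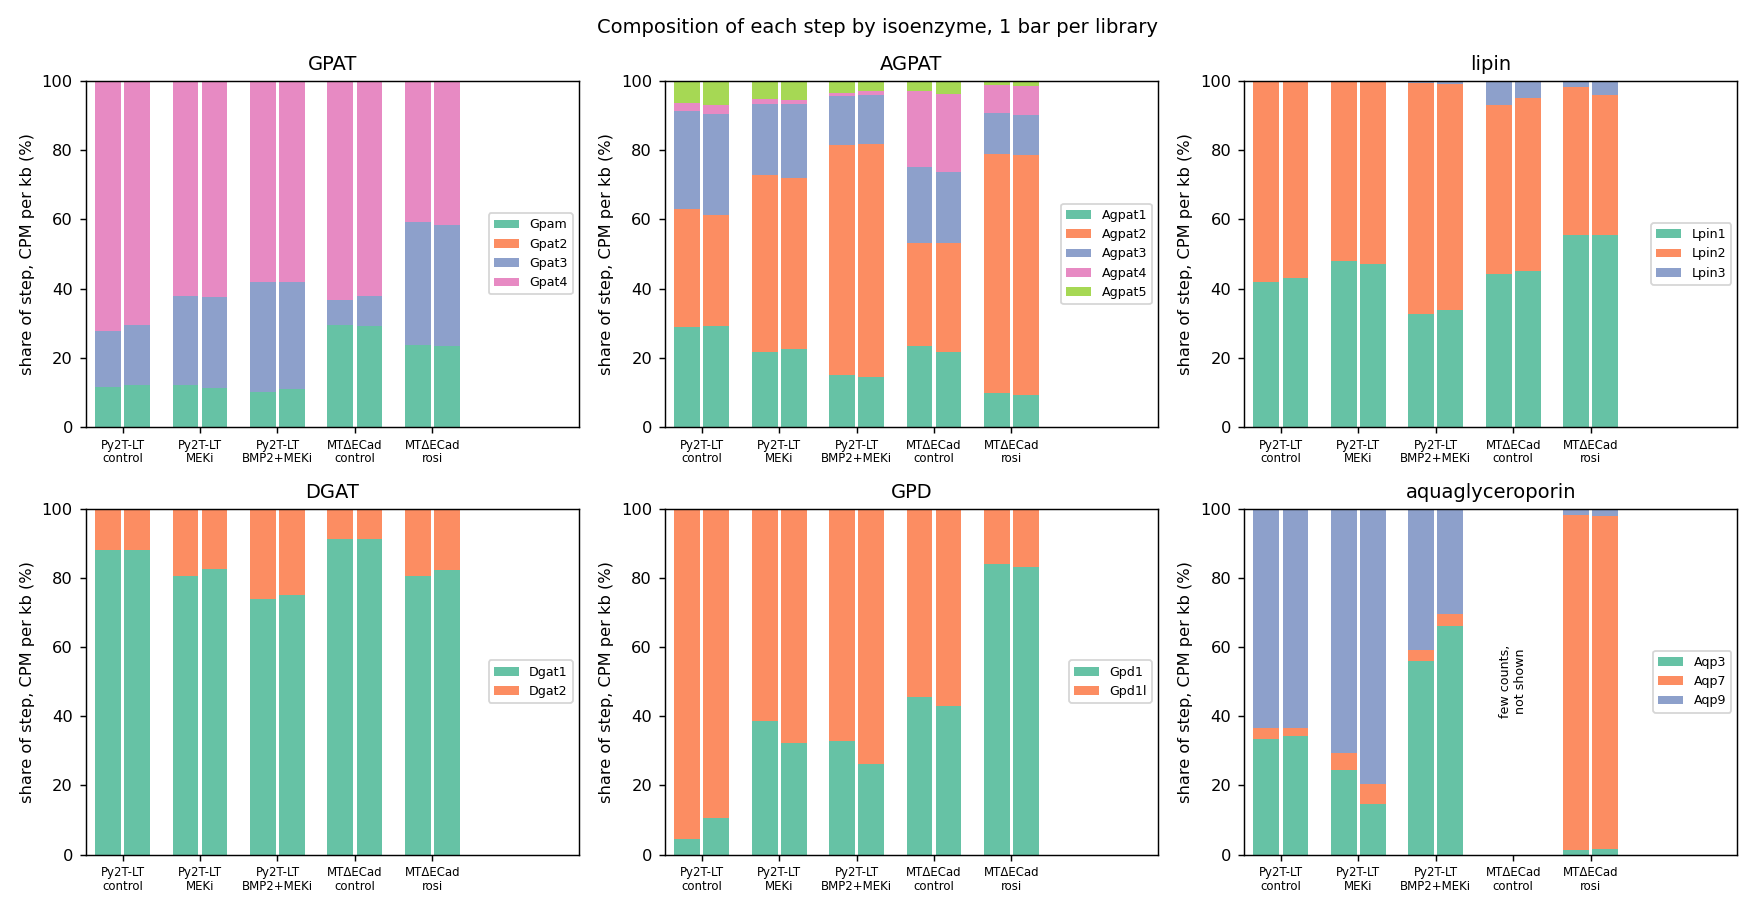
Share of each isoenzyme in the summed CPM per kb of its step, with 1 bar per library and groups in the order used in the text; MTΔECad controls are left out of the aquaglyceroporin panel because only 5 counts make up that sum. Agpat2 grows from 30.6% to 69.2% of the AGPAT bars and Gpd1 from 44.3% to 83.6% of the GPD bars under rosiglitazone, while Gpat4 and Dgat1 remain the largest of their steps in every bar.

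The glycerol channels differed between the treated lines. Aqp7 made up 96.7% ± 0.453 of the summed CPM per kb of the 3 aquaglyceroporins with rosiglitazone and 3.44% ± 0.103 with BMP2 plus the MEK inhibitor. In the latter libraries Aqp3 had 118 and 158 counts and Aqp9, a channel known from liver, 195 and 165 counts. Rosiglitazone libraries had 1 and 1 counts of Aqp3 and 3 and 3 of Aqp9. Aqp3 rose by 4.00 ± 0.32 with the combination against Py2T-LT controls and Aqp9 by 2.33 ± 0.23 (edgeR adjusted p = 1.6e-09 and 3.5e-08). With the inhibitor alone Aqp9 also rose, by 1.28, whereas Aqp3 was not called, at 0.24. Both were higher with the combination than with the inhibitor, Aqp3 by 3.76 and Aqp9 by 1.05. The control groups of the lines differed too. Aqp3 had 1 count over the 2 MTΔECad control libraries against 17 in Py2T-LT controls, and Aqp9 had 4 against 72. Compared between the treated groups of the 2 lines, Aqp3 was higher in Py2T-LT cells 127.9 times over (95% counting interval 35.1 to 1062) and Aqp9 55.6 times (25.3 to 153), whereas Aqp7 was higher in MTΔECad cells by 3.26 ± 0.29 on the log2 scale (edgeR adjusted p = 5.1e-09).

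The control groups of the lines were compared next. MTΔECad controls had 5 of the 9 genes higher than Py2T-LT controls and none lower, in a comparison that called 61.0% of all tested genes, 29.3% as higher and 31.7% as lower. Gpd1 differed by 3.80 ± 0.33, or 13.9-fold, which ran from 3.27 to 4.61 without Py2T-LT control replicate 1 or 2. Gpam followed with 1.53 ± 0.09, or 2.89-fold (edgeR adjusted p = 1.6e-05 and 9.2e-12). Dgat1 was higher by 0.57 ± 0.09, Agpat2 by 0.45 ± 0.10 and Lpin1 by 0.26 ± 0.08, with edgeR adjusted p = 2.2e-05, 8.0e-04 and 0.0098; the Lpin1 call was lost without Py2T-LT control replicate 1 (0.087) or MTΔECad control replicate 1 (0.065). Dgat2 differed by 0.05 ± 0.20 (95% interval -0.38 to 0.48) and Lpin2 by -0.02 ± 0.08 (-0.18 to 0.13), with overlapping libraries. Pck1 and Aqp7 had at most 1 count in any control library.

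With both lines treated, rosiglitazone-treated MTΔECad cells had 7 of the 9 genes higher than Py2T-LT cells with BMP2 plus the MEK inhibitor and 1 lower, against 63.4% of all tested genes called, 30.7% as higher and 32.7% as lower. Without Pck1 and Aqp7 the count was 5 higher and 1 lower of 7. Gpd1 differed by 4.44 ± 0.24 and Gpam by 2.08 ± 0.09, Agpat2 by 1.11 ± 0.09, Dgat1 by 0.86 ± 0.09 and Lpin1 by 0.60 ± 0.08. Lpin2 was the one gene lower, by a log2 difference of -0.82 ± 0.07. Pck1 was 70.8 times as high (95% counting interval 23.9 to 346). Dgat2 was not called, with a difference of 0.27 ± 0.14 and a 95% interval of -0.01 to 0.56 (edgeR adjusted p = 0.087).

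The difference between the 2 treatment effects was tested as an interaction: rosiglitazone against its controls, minus BMP2 plus the inhibitor against its own. It was called for 6 of the 9 genes, 5 with the larger effect under rosiglitazone and Lpin2 the other way, against 24.8% of all tested genes, 13.3% in the first direction and 11.6% in the other. Without Pck1 and Aqp7 it was called for 4 of 7, 3 and 1 in these directions. Lpin2 differed by -0.80 ± 0.11, Agpat2 by 0.66 ± 0.14, Gpam by 0.55 ± 0.13 and Lpin1 by 0.34 ± 0.11, with edgeR adjusted p = 6.5e-06, 0.0011, 0.0036 and 0.035. The calls of Pck1 (0.048) and Aqp7 (0.024) rest on groups with 0 to 2 counts per library and were lost without any 1 of 7 libraries for Pck1 and of the 4 control libraries for Aqp7. The Lpin1 call was lost by DESeq2 (0.066), without the count filter (0.061) and without any 1 of 6 libraries (0.061 to 0.12). Without either MTΔECad control only Gpam, Agpat2 and Lpin2 passed, 3 of the 9. Dgat1 differed by 0.29 ± 0.13, with a 95% interval of 0.03 to 0.56, and did not pass after adjustment (edgeR adjusted p = 0.11). Dgat2 differed by 0.23 ± 0.25 (-0.29 to 0.74) and Gpd1 by 0.64 ± 0.48 (-0.47 to 1.75). Without Py2T-LT control replicate 2 the Gpd1 value was -0.17, and without replicate 1 it was 1.17 and passed the test (0.017), as did the value of 0.64 without the count filter (0.034). Line and treatment changed together here, so their parts in these differences cannot be told apart.

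**Figure D4:**
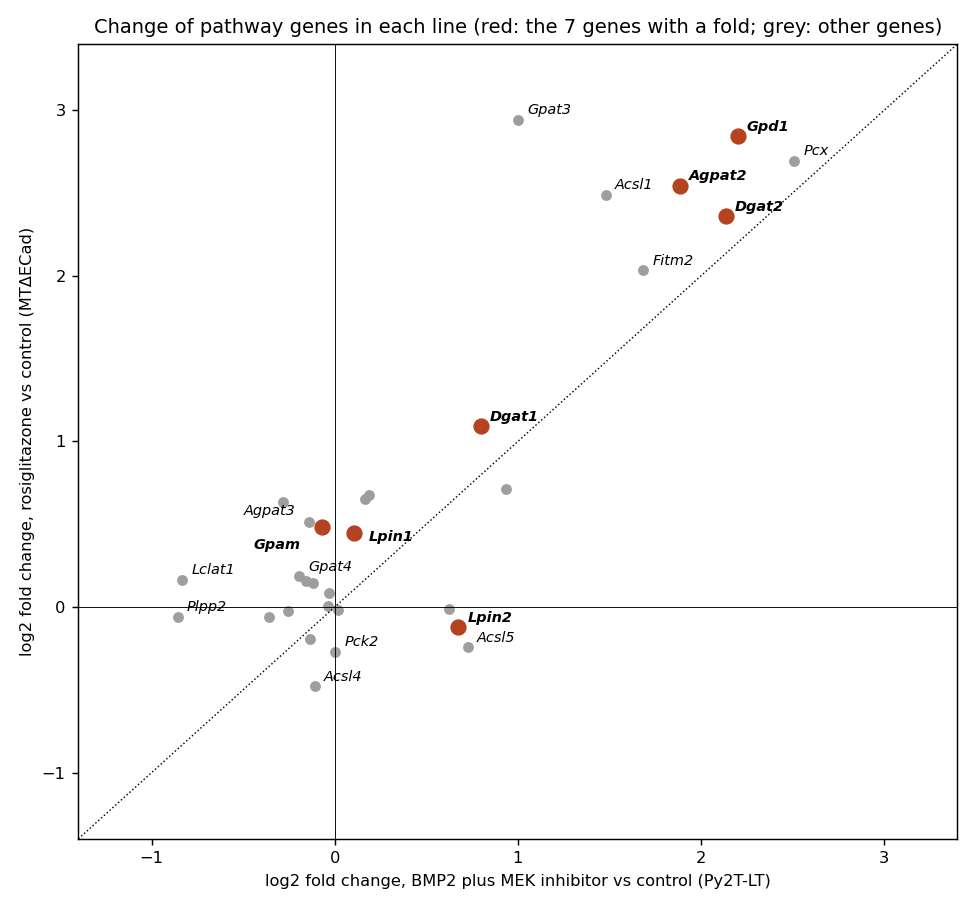
Log2 fold change of 31 pathway genes with at least 10 counts in each of the 4 groups, for BMP2 plus the MEK inhibitor in Py2T-LT cells (horizontal) and rosiglitazone in MTΔECad cells (vertical), each against its own control; the dotted line marks equal change, red points are 7 of the 9 genes and grey points other genes of the pathway. Gpd1, Agpat2 and Dgat2 lie at the upper right with changes of 1.89 to 2.84, and Lpin2 lies to the right at 0.67 and -0.12.

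The other genes of the pathway were followed as a list of 32, of which 29 were tested. Rosiglitazone raised 9 and lowered 3, with a median log2 fold change of 0.11 over the 26 with a fold, in a comparison that called 13.2% of all genes. BMP2 plus the inhibitor raised 10 and lowered 3, with a median of 0.01, against 38.5% of all genes. The inhibitor alone raised 8 and lowered 1, with a median of 0.09, against 16.5%. Compared with the inhibitor alone, 11 genes were higher and 6 lower with the combination, with a median of 0.08, against 37.3%. Not called were 17, 16, 20 and 12 of the 29 genes in these comparisons, in the same order.

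Pcx encodes pyruvate carboxylase, which makes the oxaloacetate that phosphoenolpyruvate carboxykinases use. It rose by 1.85 ± 0.13 with the inhibitor, 2.51 ± 0.13 with the combination and 2.70 ± 0.11 with rosiglitazone, the last from 65.1 to 422 CPM. Acsl1, which activates fatty acids as acyl-CoA, rose by 1.19 ± 0.08, 1.48 ± 0.08 and 2.49 ± 0.08 in the same order. Fitm2, a protein of the endoplasmic reticulum needed for lipid droplet formation, rose by 0.97 ± 0.14, 1.68 ± 0.13 and 2.03 ± 0.12. The 9 edgeR adjusted p of these 3 genes were at most 2.4e-05. Cds1, whose product diverts phosphatidate away from triglycerides to other phospholipids, had 24 and 25 counts in Py2T-LT controls and 95 and 104 with the combination, a rise of 2.02 ± 0.26 (edgeR adjusted p = 3.0e-06), and 0 counts in all 4 MTΔECad libraries.

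Between the control lines 14 of the 29 genes were higher in MTΔECad cells and 11 lower, with a median of 0.20, against 61.0% of all genes called, 29.3% as higher and 31.7% as lower. Lpin3, the remaining lipin, had 98 counts in MTΔECad against 5 in Py2T-LT controls over the 2 libraries, 20.8 times the level (95% counting interval 8.63 to 65.6). Mogat1, which makes diacylglycerol from monoacylglycerol, had 85 against 5 counts, 18.1 times the level (7.44 to 57.0). Agpat4 was higher by 3.70 ± 0.15 and Pck2 by 1.76 ± 0.09, while Acsl4 was lower by a log2 difference of -1.97 and Gk, the glycerol kinase, by one of -1.06. Plpp1, a lipid phosphatase, was higher by 1.03 ± 0.11 and Pcx by 2.19 ± 0.13, and Mttp, which loads lipoproteins with lipid, was lower by a log2 difference of -1.51 ± 0.13. Aqp3 and Aqp9 were also lower in MTΔECad controls, where they had 1 and 4 counts over the 2 libraries against 17 and 72. The mean Agpat4 level was 3.51 CPM in control Py2T-LT and 45.8 CPM in control MTΔECad cells, with no call under rosiglitazone (-0.06 ± 0.12, edgeR adjusted p = 0.83). Of the other AGPATs, Agpat3 rose under rosiglitazone by 0.51 ± 0.09 (edgeR adjusted p = 3.0e-04), Agpat5 was lower with the combination than with the inhibitor by a log2 difference of -0.37 ± 0.11 (0.014), and Agpat1 was called in none of the 4 treatment comparisons. Gk rose under rosiglitazone by 0.63 and was lower with the combination than with the inhibitor, by a log2 difference of -0.44. It was not called in either Py2T-LT treatment against controls.

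Between the treated groups 18 of the 29 genes were higher in MTΔECad cells and 8 lower, with a median of 0.46, against 63.4% of all genes called. Past a log2 difference of 1, Agpat4, Pcx, Acsl1, Pck2, Fitm2, Gpat3 and Bscl2 (seipin, a lipid droplet protein) were higher, by 4.00, 2.38, 1.62, 1.48, 1.17, 1.08 and 1.06. Mogat1 was 14.2 times as high (95% counting interval 5.80 to 45.3) and Lpin3 differed by 1.99 ± 0.50. Acsl4 and Mttp were lower, by log2 differences of -2.34 and -1.03, besides Aqp3, Aqp9 and Cds1, the last at least 30.8-fold lower.

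The genes whose profiles over the 10 libraries were closest to each member were found by the root mean square difference of centred log2 levels, among tested genes with a mean of at least 1 CPM. For Agpat2 these were Acsl1 at 0.22 and Fitm2 at 0.23, both already on the pathway list. The closest to Dgat1 were Ormdl3 at 0.09 and Apmap at 0.12. Dgat2 was closest to Pde1b at 0.27 and Fabp5, a fatty acid carrier, at 0.32. For Gpam they were H2-Ke6 at 0.13 and Ccser2 at 0.14, and for Gpd1 the closest was Fndc5 at 0.69. Pck1 was closest to Rarres2, the gene of the adipokine chemerin, at 0.48 and Adcy5 at 0.53, and Aqp7 to Clstn3 at 0.46 and Ltc4s at 0.47. The 2 lipins varied by less than 1 on the log2 scale between their lowest and highest group means (0.70 and 0.82), and no gene was sought for them. Libraries of a group share their treatment, so these likenesses describe 5 group levels more than 10 independent points.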

How the data were processed

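Gene counts were used as the authors deposited them: whole-number read counts per NCBI gene for 10 libraries, from STAR alignments to mm10 per the submitters' processing notes. Not given in the sources used here: the counting tool, its strand setting and its handling of shared reads. A stranded total RNA kit was used per the labels' protocols, which also speak of poly-A RNA. Of 18103 identifiers 18057 were matched to RefSeq GRCm38.p6 symbols, and the 46 others, with 0.799% of counts, were tested unnamed.

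Tests used edgeR 4.0.16 under R 4.3.3: filterByExpr (minimum count 10, minimum total 15), TMM scaling and a robust quasi-likelihood fit of 5 group means to all 10 libraries, with 5 residual degrees of freedom and a common biological coefficient of variation of 7.07%. With 2 experiments a group, p-values reflect only the spread between replicate experiments, pooled over the 5 groups and moderated across the tested genes. Groups with 0 counts were set to a floor of 3 counts per library, and counting intervals are exact conditional 95% intervals covering counting error only. Alternatives were DESeq2 1.42.0, its size factors, no filter, a filter of 1 CPM in 2 libraries, only the groups compared, a replicate block and leaving out each library. All 9 genes were named, other pathway genes where called with an absolute log2 fold change above 1 or as isoenzymes, and the 2 closest genes per member, of which 1 is not reported here. Members, lists and motifs were chosen with earlier results of these data known.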

Additional observations from a re-analysis of the deposited data

How the results depend on the processing

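Alternatives were DESeq2, its size factors, no filter, a filter of 1 CPM in 2 libraries, fitting only the groups compared, a replicate block and leaving out each library. Of 616 log2 fold changes of members under these, 575 kept their direction and side of the threshold, 34 lost the call, 4 gained it and 3 reversed. The reversals were Gpam under BMP2 plus the inhibitor against controls (-0.19 to 0.026 when 1 library was left out, reversed without combination replicate 1), Lpin2 between the control groups of the lines (-0.046 to 0.00054, reversed without MTΔECad control replicate 2) and Gpd1 in the difference between treatments (-0.17 to 1.17, reversed without Py2T-LT control replicate 2). Leaving out 1 library gave 1445 to 2177 called genes for the MEK inhibitor (lowest without Py2T-LT control replicate 2) against 2170, and 1113 to 1350 for rosiglitazone (lowest without MTΔECad control replicate 1) against 1737. Called members ran from 3 to 5 for the combination against the inhibitor (lowest without inhibitor replicate 2) and from 3 to 5 for the difference between treatments (lowest without either MTΔECad control), against 6 in both. Fewer samples entered these fits. Replicate numbers were not taken to pair the libraries, since correlations of their deviations ran from -0.22 to 0.25 over 10 pairs of groups and passed 0.1 in 5, not in all. With a replicate block, called genes were 2245 for the inhibitor, 5148 and 5024 for the combination against controls and inhibitor, and 1833 for rosiglitazone; called members were 5, 6, 6 and 8, and 5 for the difference between treatments, where Pck1 was lost (adjusted p = 0.055). Isoenzyme shares moved by more than 1 SD in 67 of 180 cases, all on another choice of length. The cases that left out 1 library could not pass 1 SD, because each group has only 2 libraries. They therefore do not show how stable the shares are to a lost library. Depth limits Pck1 and Aqp7 outside rosiglitazone, where changes below the floor of 3 counts per library were not detectable.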
